A study of Mus musculus with 6 samples.

Results

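The membrane mucins are 6 genes, Muc1, Muc4, Muc13, Muc15, Muc16 and Muc20, taken by symbol from the 50600 genes in the files. They were chosen because several were about 3-fold higher in cortical thymic epithelial cells (cTECs) lacking Psmb11, so their difference between genotypes is given as a description and not as a test. All 6 passed the low count filter, among 16938 genes tested. The libraries are polyadenylated RNA of primary thymic cTECs, taken at an age of 8 to 10 weeks, of the mouse line B6.B6CB-Psmb11tm1Smta. KO libraries (replicates A to C) came from Psmb11-/- mice and WT libraries (replicates A to C) from Psmb11+/+ mice of the same line. Medullary cells and thymocytes, which the series also covers, were not analysed here. Psmb11 encodes the β5t subunit of the thymoproteasome of cTECs. The labels do not give the gate used to isolate the cells, or say whether the 3 libraries of a genotype came from separate mice or pools. The p-values therefore measure only the spread between these libraries, which may be technical.

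Membrane mucins are long glycoproteins anchored in the plasma membrane of epithelial cells, with an outer domain rich in serine, threonine and proline that carries dense O-linked glycans. They form the glycocalyx of apical surfaces, and some are cleaved and shed, or signal through a short cytoplasmic tail. Muc1 binds β-catenin and Grb2 through its tail, Muc4 associates with the receptor ErbB2, Muc16 carries the CA125 epitope and binds mesothelin, and Muc20 has been linked to the receptor Met. Muc13 is a mucin of the gut surface and Muc15 a smaller family member.

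The promoters of the 3 members that were about 3-fold higher, and of Muc1, which was about 1.6-fold higher, are shown so that the start regions of members with larger and smaller differences can be compared. Of the 6 members 5, all but Muc15, matched an entry of the RefSeq table (build GRCm38.p6), which holds 250 bases before and 50 bases after each start. Each is read 5′ to 3′ on the gene's strand, and capitals mark every match, on either strand, to AGGAAG (the Ets family), GGGNGGG (Sp and Klf factors), TATAAA (the TATA box), AACCNGTT (Grainyhead), TGANTCA (AP-1) or TTCNNNGAA (Stat). The windows are chr16:32735636-32735935 (plus strand) for Muc4, chr16:32797386-32797685 (minus strand) for Muc20, chr9:18674554-18674853 (minus strand) for Muc16 and chr3:89228806-89229105 (plus strand) for Muc1.
Muc4: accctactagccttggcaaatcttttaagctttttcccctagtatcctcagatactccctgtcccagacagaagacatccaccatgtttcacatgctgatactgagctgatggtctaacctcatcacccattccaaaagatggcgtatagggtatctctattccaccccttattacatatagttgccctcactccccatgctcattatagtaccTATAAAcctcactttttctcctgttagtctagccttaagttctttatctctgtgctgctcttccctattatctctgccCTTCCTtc
Muc20: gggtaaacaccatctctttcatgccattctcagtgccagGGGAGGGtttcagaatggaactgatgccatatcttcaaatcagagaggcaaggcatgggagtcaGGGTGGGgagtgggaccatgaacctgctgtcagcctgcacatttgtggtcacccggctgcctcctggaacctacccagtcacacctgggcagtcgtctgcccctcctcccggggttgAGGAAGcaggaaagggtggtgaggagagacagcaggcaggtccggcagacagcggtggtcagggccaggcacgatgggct
Muc16: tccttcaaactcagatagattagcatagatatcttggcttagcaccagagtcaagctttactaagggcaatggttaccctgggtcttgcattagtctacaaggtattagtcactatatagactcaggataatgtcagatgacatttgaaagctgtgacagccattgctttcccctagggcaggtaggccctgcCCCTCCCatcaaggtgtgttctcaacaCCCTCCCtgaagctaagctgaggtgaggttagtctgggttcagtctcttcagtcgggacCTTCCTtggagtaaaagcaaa
Muc1: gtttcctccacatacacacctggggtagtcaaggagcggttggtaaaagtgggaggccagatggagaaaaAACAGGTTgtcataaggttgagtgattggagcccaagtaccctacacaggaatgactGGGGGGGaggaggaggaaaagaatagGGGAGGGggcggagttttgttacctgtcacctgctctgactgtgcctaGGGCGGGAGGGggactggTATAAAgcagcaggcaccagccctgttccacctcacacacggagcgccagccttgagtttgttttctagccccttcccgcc
Positions below are those of the first base of a match, counted from the start site.

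In these windows Muc4 had TATAAA at -36 and the Ets letters at 42, and Muc1 had TATAAA at -31. TATAAA occurred in 13.6% of the 32851 promoters of the table. Muc4, Muc20 and Muc16 each had AGGAAG or its reverse, at 42, -30 and 29, and Muc1 had none, against 35.4% of all promoters. The entries of Muc13, which was 2.41-fold higher and is not shown, had none either, and differ in their start site. The entry whose window begins at chr16:33793787 held TGANTCA at -61, TTCNNNGAA at -140 and GGGNGGG at -82 and -77. The entry whose window begins at chr16:33794239 held TGANTCA at -179. Muc20 (-211 and -147), Muc16 (-57 and -30) and Muc1 (-123, -97, -49 and -45) held GGGNGGG, as did 48.1% of all promoters, some of these matches lying against each other or overlapping. The Grainyhead letters were found at -180 of Muc1, and in 2.09% of all promoters. TGANTCA (7.81% of all promoters) and TTCNNNGAA (8.30%) were in none of the 4 windows shown. No motif searched was in all 4 windows. The windows are few and were grouped by the fold through which the members were chosen, so nothing is read from these matches.

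The libraries held 34265035 to 39224292 gene counts. Psmb11 had 36 to 67 counts in the KO libraries and 8293 to 10027 in the WT libraries, as labelled. The cTEC markers were present throughout, with a summed level of 9433 to 10506 CPM (counts scaled to library size) in KO and 13805 to 14258 CPM in WT, and 13 of 16 were called lower in KO and 1 higher. Between libraries of one genotype the variance was 4.54 to 7.49 times that of counting alone.

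Muc4 gave the most reads of the family in every library but WT replicate A, where Muc1 had 289. KO replicates A to C gave 924, 1240 and 1069 counts of Muc4, against 237, 364 and 497 for WT replicates A to C. Its level was 24.9, 33.6 and 31.3 CPM in the KO libraries and 6.88, 10.1 and 12.7 CPM in the WT libraries. Every KO library lay above every WT library, and KO replicate A and WT replicate A were the lowest of their groups. The KO mean of 29.9 ± 4.53 CPM was 3.0-fold above the WT mean of 9.91 ± 2.93 CPM (SD, n = 3 each) (log2 fold change 1.59, SE 0.17).

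**Figure D1:**
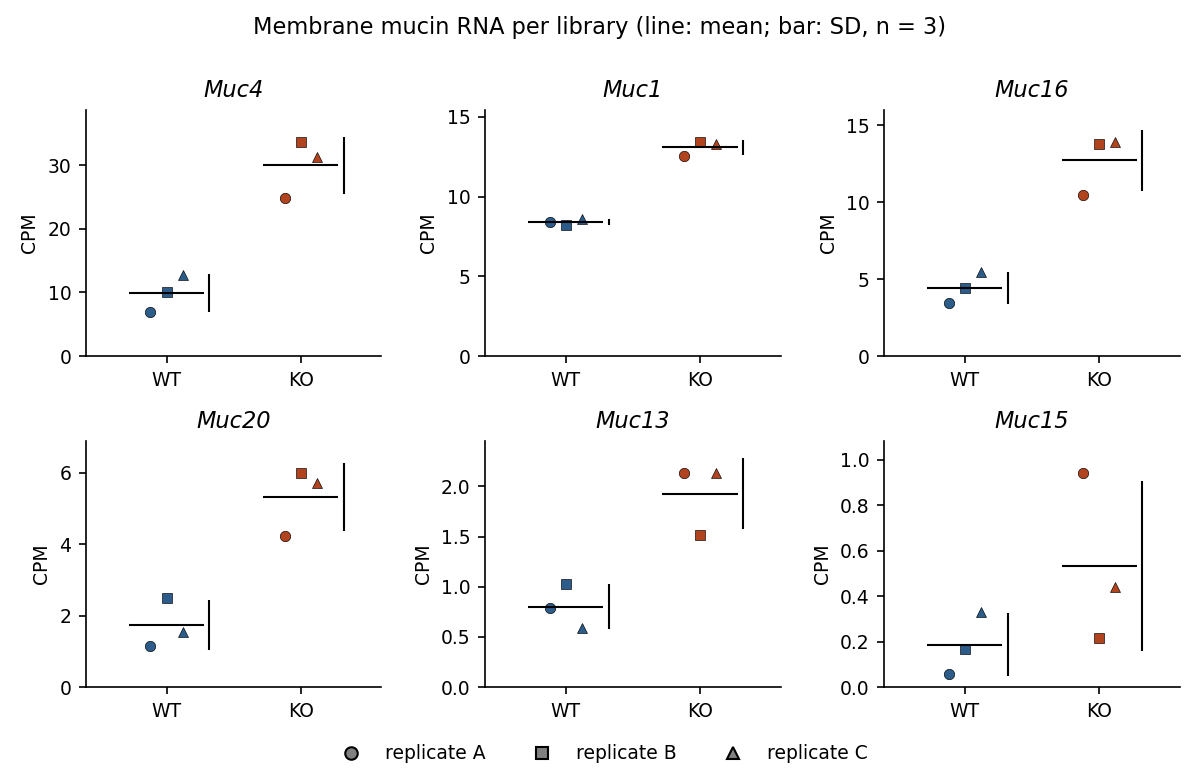
Level of each membrane mucin in CPM (vertical axes, from 0) in the 3 WT and 3 KO libraries, with the mean as a line and the SD as a bar (n = 3). For 5 of the 6 genes all KO points lie above all WT points, and Muc15 is the exception.

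Muc16, the largest gene of the family here, had 10.5, 13.8 and 13.9 CPM in KO replicates A to C and 3.43, 4.43 and 5.45 CPM in WT replicates A to C. The order of the libraries was close to that of Muc4, with replicate A lowest in both genotypes and WT replicate C highest among WT. Its means were 12.7 ± 1.96 and 4.43 ± 1.01 CPM (SD, n = 3 each), a 2.85-fold difference (log2 fold change 1.51, SE 0.16). Muc20 had 4.23, 6.0 and 5.70 CPM in the KO replicates A to C, against 1.16, 2.51 and 1.54 CPM in the WT replicates A to C. The genotypes again did not overlap, but here WT replicate B was the highest WT library. The means were 5.31 ± 0.947 and 1.73 ± 0.694 CPM, and the difference was 3.05-fold (log2 fold change 1.61, SE 0.24).

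Muc1 differed less and was the most even. It had 12.6, 13.4 and 13.3 CPM in KO replicates A to C and 8.39, 8.24 and 8.62 CPM in WT replicates A to C. The libraries of a genotype were nearly alike, with a coefficient of variation of 3.62% in KO and 2.27% in WT, against 15.1% and 29.5% for Muc4. The fold was 1.56 (log2 fold change 0.64, SE 0.08), so Muc1 was the member with the smallest difference.

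Muc13 and Muc15 were low. Muc13 had 79, 56 and 73 counts in KO and 27, 37 and 23 counts in WT, or 1.93 ± 0.354 and 0.801 ± 0.221 CPM (SD, n = 3 each), 2.41-fold apart and without overlap (log2 fold change 1.27, SE 0.26). Muc15 had 35, 8 and 15 counts in KO and 2, 6 and 13 counts in WT. The genotypes overlapped, since KO replicate B lay below WT replicate C, and KO replicate A held more counts than the other KO libraries together. Its fitted fold was 2.78 (log2 fold change 1.47, SE 0.61). That fold was 1.70 without KO replicate A and 4.60 without WT replicate C.

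By the edgeR quasi-likelihood test at an adjusted p below 0.05, 5 of 6 members were called higher in KO and 0 lower, beside 12.3% of all genes tested called higher and 10.7% called lower. For 5 of 6 members the KO libraries lay above the WT libraries without overlap, beside 19.2% of all genes tested in that direction and 39.3% in either direction. The median log2 fold change of the members was 1.49, and that of all genes tested was -0.00. The members were chosen from this contrast, so nothing is read from these counts. In bulk samples, more cells of a kind and more RNA per cell cannot be told apart.

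Levels of different genes were compared on the length-scaled TPM of RSEM. In KO, Muc1 and Muc4 stood together at 10.4 ± 0.116 and 10.4 ± 1.2 TPM (SD, n = 3 each). Muc20 and Muc16 followed with 4.21 ± 0.679 and 3.79 ± 0.565 TPM, and did not differ beyond their spread. Muc13 had 1.26 ± 0.188 TPM and Muc15, the lowest, 0.420 ± 0.354 TPM.

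In WT the order of the means was the same, but Muc1 stood clear at 6.72 ± 0.595 TPM, above Muc4 at 3.27 ± 0.862 TPM (SD, n = 3 each). Muc20 (1.29 ± 0.486 TPM) and Muc16 (1.18 ± 0.244 TPM) again overlapped, above Muc13 (0.577 ± 0.181 TPM) and Muc15 (0.177 ± 0.114 TPM). Muc1 made up 51.1 ± 4.57% of the summed TPM of the 6 genes in WT and 34.2 ± 2.36% in KO. Muc4 made up 24.7 ± 5.87% in WT and 34.0 ± 1.70% in KO. The sum was 30.4 ± 2.04 TPM in KO and 13.2 ± 1.5 TPM in WT. The mean transcript length that RSEM assigned to Muc4 ranged from 4530 to 6069 bases between libraries. For Muc16 it ranged from 5264 to 7261 bases and for Muc15 from 1564 to 3421 bases. These lengths enter the TPM of each gene.

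**Figure D2:**
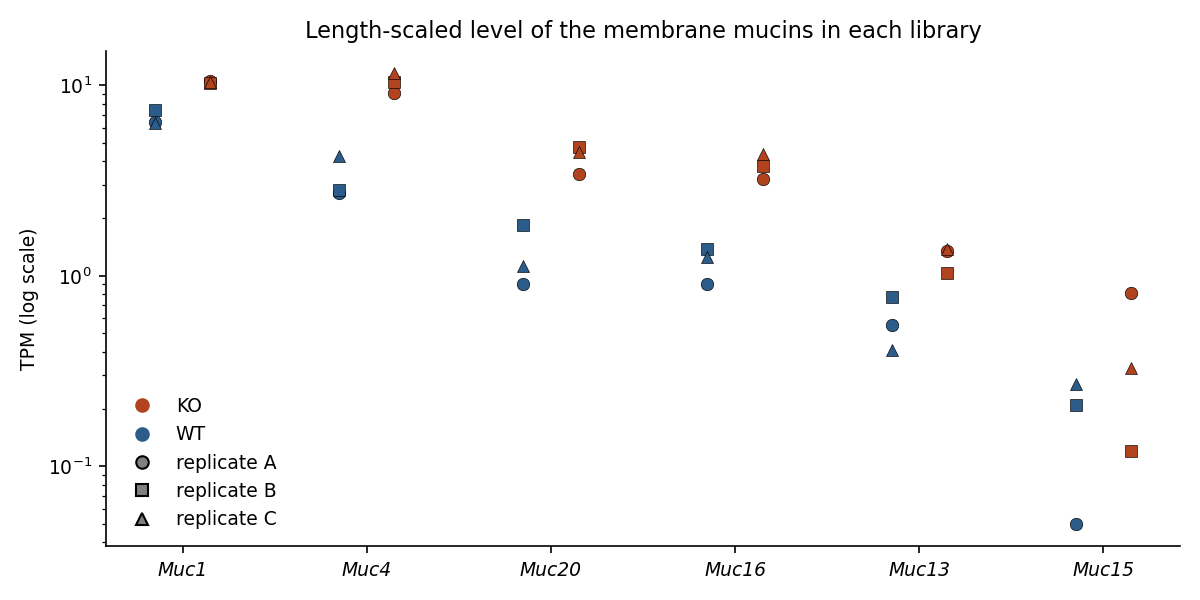
TPM of each membrane mucin in every library, on a log axis, WT in blue and KO in red. Muc1 and Muc4 have similar KO values near 10.4 TPM, whereas in WT Muc1 lies above Muc4.

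Within a genotype, the members did not all vary together. Muc4 and Muc16 had the lowest value in replicate A and the highest WT value in WT replicate C. Their deviations from the genotype means on the log2(CPM + 0.5) scale had a Pearson r of 0.97 over the 6 libraries, given as a description. The r of Muc1 was 0.62 with Muc4 and 0.74 with Muc16, and that of Muc20 was 0.59 and 0.56. Muc13 had an r of -0.44 with Muc4, -0.45 with Muc16 and -0.72 with Muc1. KO replicate B had the lowest Muc13 and Muc15 and the highest Muc4, Muc20 and Muc1 among KO libraries. Over all 15 pairs of members the median r was 0.18, and it was 0.034 without WT replicate B, 0.105 without WT replicate A and 0.419 without KO replicate A. The within-genotype range was 0.43 (KO) and 0.84 (WT) log2 units for Muc4, and 0.09 and 0.06 for Muc1.

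**Figure D3:**
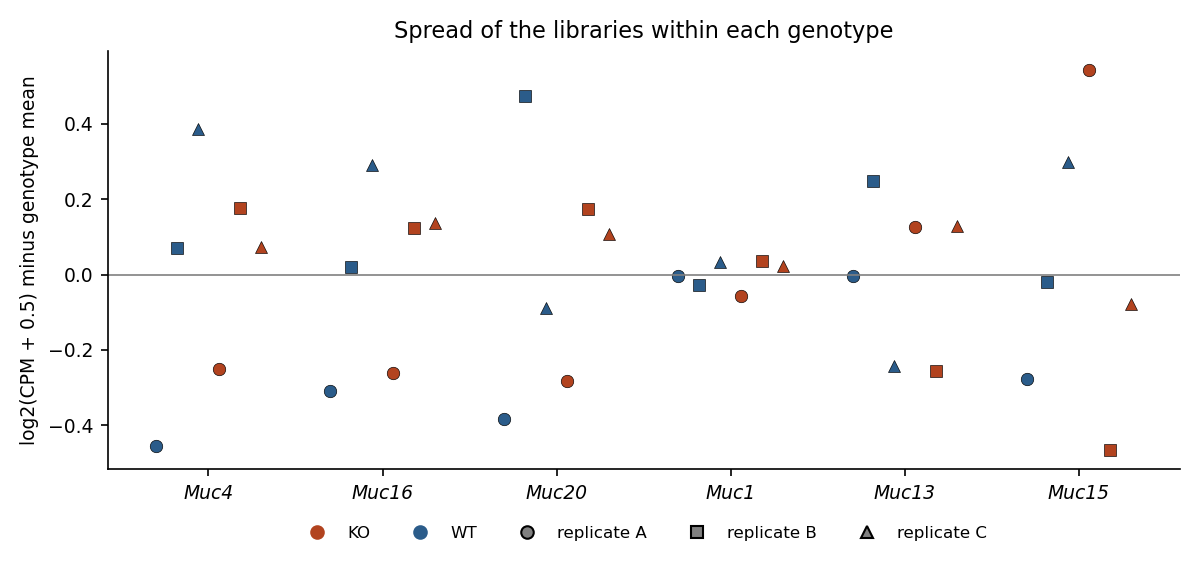
Deviation of each library from the mean of its genotype, in log2(CPM + 0.5), for each membrane mucin. Muc4 and Muc16 show nearly the same order of libraries, Muc1 lies close to 0 throughout, and Muc13 differs in order.

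By position (GRCm38, GENCODE M21), Muc4 (chr16:32735886-32782391, plus strand) and Muc20 (chr16:32777419-32797435, minus strand) are neighbours that meet tail to tail, and their spans overlap by 4973 bases, with 627 exonic bases in common. Muc13 (chr16:33794037-33819934, plus strand) lies on the same chromosome. Muc1 is at chr3:89229057-89233381 (plus strand), Muc15 at chr2:110721340-110739527 (plus strand, wholly within the span of Ano3 on the other strand) and Muc16 at chr9:18495455-18674530 (minus strand). The counting used strand, so Muc4 and Muc20 reads were told apart by strand.

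Of 16 genes tested with a start within 500 kb of that of Muc4, 0 were called higher and 1, Pcyt1a, was called lower (1.12-fold, edgeR adjusted p = 0.0113). The nearest tested genes on either side were Tnk2, a tyrosine kinase, at 83.5 CPM (KO) against 83.2 CPM (WT), and Fyttd1, with 60.4 and 59.3 CPM. Tfrc, the transferrin receptor, was not called, at 12.7 CPM (KO) against 11.6 CPM (WT). Over all 6 members 66 neighbours were tested, of which 5 were called higher and 6 lower, or 16.7% in all, beside 23.0% of all genes tested. Near Muc1, Thbs3, a thrombospondin, was 1.5-fold higher (edgeR adjusted p = 0.000307) and Efna3, an ephrin, 1.29-fold higher (adjusted p = 0.0185), while Mtx1 on one side and Krtcap2 on the other were not called. Of 38 genes tested near Muc1, 5 were called lower and 2 higher, beside 10.7% and 12.3% of all genes tested. The falls were Kcnn3, a potassium channel, at 1.28-fold (edgeR adjusted p = 0.000302), Fdps, an enzyme of isoprenoid synthesis, at 2.1-fold (adjusted p = 0.0208), with Msto1, Dap3 and Pmvk at 1.14-fold, 1.1-fold and 1.2-fold. The level of Fdps is uncertain, since it had 1.12 CPM (KO) and 2.37 CPM (WT) in the gene counts. RSEM gave it 36.6 TPM (KO) and 63.3 TPM (WT), also lower in KO. Among the other members' neighbours, Itgb5, 35.6 kb from the start of Muc13, was 1.26-fold higher (edgeR adjusted p = 0.0476). Bbox1 and Fibin, 407 and 358 kb from the start of Muc15, were 1.92-fold and 1.82-fold higher. Leaving out KO replicate C or WT replicate B left 3 neighbours called higher, and the lower calls fell to 2 without WT replicate A and to 3 without KO replicate B, WT replicate B or WT replicate C.

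**Figure D4:**
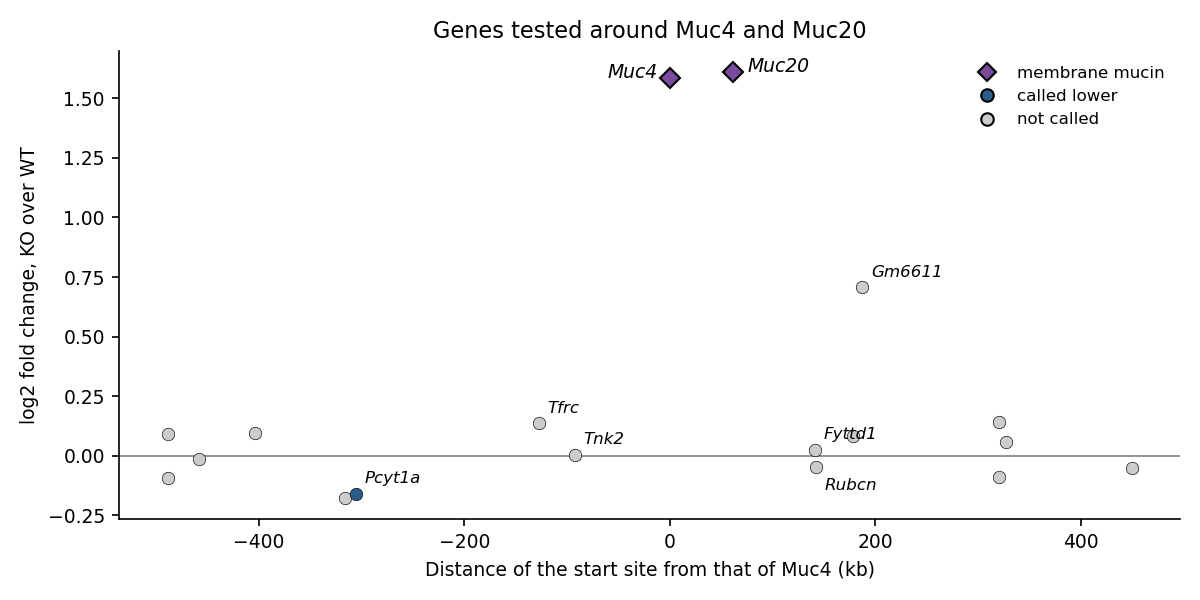
Log2 fold change (KO over WT) of the genes tested around Muc4, against the distance of their start from that of Muc4 in kb. Muc4 and Muc20 lie near 1.6, and the others lie near 0 apart from Gm6611, which was low (0.854 CPM in KO, 0.521 in WT) and not called.

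Among mucins outside the family of 6, the transmembrane mucin Muc3a had 11.2, 11.3 and 11.2 CPM in KO replicates A to C and 13.6, 12.5 and 12.6 CPM in WT replicates A to C. It was not called (log2 fold change -0.20, edgeR adjusted p = 0.0931), and its length-scaled level was 10.2 TPM in KO and 11.9 TPM in WT. The annotation marks this gene as lying at an error of the reference genome. Of 8 tested transmembrane mucins and sialomucins outside the family 0 were called in either direction (median log2 fold change 0.23), with 2 higher and 1 lower at an unadjusted p below 0.05. DESeq2 called 1 of them higher and limma 0, and edgeR called 4 of the list with no low count filter, 2 without KO replicate B and 1 without WT replicate C or at a mean of at least 5 CPM. Among them Parm1 stood at 533 (KO) and 509 CPM (WT), and the sialomucin Cd164 at 363 and 376 CPM.

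Of 6 tested secreted mucins and mucus partners 3 rose and 0 fell (median log2 fold change 0.99). Muc5b, a gel-forming mucin of the airway, had 24.9, 72.1 and 41.2 CPM in KO replicates A to C and 11.4, 17.7 and 15.9 CPM in WT replicates A to C. The fold was 3.06 (log2 SE 0.30, edgeR adjusted p = 0.00195), with KO replicate B far above the other KO libraries. The call was lost in a robust fit (adjusted p = 0.0975), chosen after the data were seen, and with limma on log2(TPM + 1) (adjusted p = 0.0647). Agr2, a disulfide isomerase needed for mucin folding, rose from 1.22 ± 0.124 to 4.0 ± 1.62 CPM (n = 3 each, 3.27-fold, edgeR adjusted p = 0.000815). Fcgbp, a mucus protein, rose 1.4-fold to 2798 ± 329 CPM (n = 3). Muc5ac (0.862 CPM against 0.307 CPM in WT) and Muc2 (0.274 and 0.296) were not called.

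The enzymes that build mucin O-glycans were split. Of 17 polypeptide GalNAc transferases, which start the glycans, 3 rose and 4 fell (median log2 fold change 0.03). Galnt14, Galnt17 and Galnt6 rose 1.28-fold, 1.25-fold and 1.80-fold, and Galnt18, with the highest level of these, fell from 140 ± 1.46 to 119 ± 2.69 CPM (n = 3 each, edgeR adjusted p = 0.000421). Galnt9, Galnt10 and Galnt1 fell 2.21-fold, 1.13-fold and 1.09-fold. Galnt6 was not called without KO replicate A or WT replicate A, and only 2 of the list fell without KO replicate B, WT replicate B or WT replicate C. With limma on TPM 1 rose and 1 fell.

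Of 15 enzymes of the core, extension and capping steps 6 rose and 0 fell (median log2 fold change 0.25). The sialyltransferases St3gal4 and St6galnac2 rose 1.70-fold and 1.57-fold (edgeR adjusted p = 0.000676 and 0.000562), and St6galnac6 rose 1.70-fold. Gcnt4, a branching enzyme, rose 2.75-fold to 1.41 CPM, and the fucosyltransferase Fut2 rose 1.83-fold. Gcnt1 rose 1.39-fold, a call lost in 9 of 16 alternatives. C1galt1, which makes the core 1 structure, was not called, at 58.6 CPM (KO) against 57.0 CPM (WT). With limma on TPM 2 of the 6 rises were called, and without KO replicate C 1 enzyme was called lower.

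Of 13 tested partners of membrane mucins 5 rose and 2 fell (median log2 fold change 0.06). Msln, mesothelin, which binds Muc16, had 105, 117 and 125 CPM in KO replicates A to C and 30.5, 41.1 and 48.8 CPM in WT replicates A to C. All KO libraries lay above all WT libraries, and the fold was 2.87 (log2 SE 0.12, edgeR adjusted p = 6.45e-06). Lgals3, a galectin that binds mucin glycans, rose 2.46-fold to 6.44 ± 0.322 CPM, and the receptor Erbb3 1.84-fold to 25.8 ± 1.11 CPM (n = 3 each). Erbb2 and Met, the receptors linked to Muc4 and Muc20, both rose 1.2-fold, calls not made with limma on TPM. Grb2 and Ctnnb1, which bind the Muc1 tail, fell 1.12-fold and 1.10-fold, also not with limma on TPM. Egfr was not called, at 459 CPM (KO) against 472 CPM (WT).

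**Figure D5:**
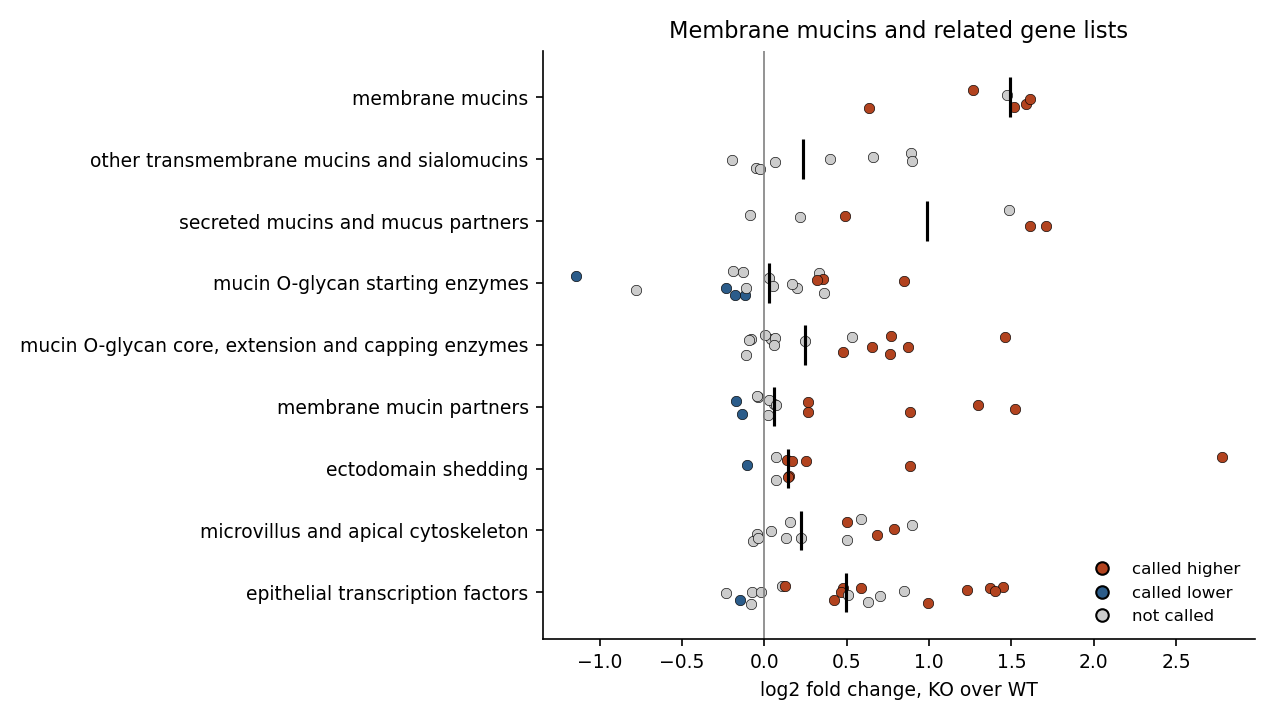
Log2 fold change (KO over WT) of each tested gene by list, with the list's median as a vertical line. The membrane mucins, chosen from this contrast, have a median of 1.49. The lists of O-glycan starting enzymes and of mucin partners have medians of 0.03 and 0.06 with calls on both sides of 0.

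Of 10 genes of ectodomain shedding 7 rose and 1 fell (median log2 fold change 0.14), most by little. The rises included inhibitors as well as sheddases. Timp1, a metalloproteinase inhibitor, rose 1.85-fold to 13.0 ± 0.925 CPM (n = 3, edgeR adjusted p = 4.72e-05). Timp3, also an inhibitor, rose 1.12-fold (edgeR adjusted p = 0.0458), and Rhbdf1, a regulator of Adam17, 1.19-fold. The sheddases Adam9, Adam10 and Adam17 rose 1.11-fold, 1.10-fold and 1.10-fold. Mmp7 was low and called higher, with 0.399 CPM (KO) against 0.0565 CPM (WT). The rises numbered 3 without KO replicate B, WT replicate A or WT replicate C, and 4 with limma on TPM or RSEM counts. The fall, Mmp14 (1.07-fold), was called only with all libraries or without KO replicate A among the sets of libraries fitted. Of 13 tested genes of microvilli and the apical cytoskeleton 3 rose and 0 fell (median log2 fold change 0.22): the protocadherin Cdhr5 1.61-fold, the actin bundler Espn 1.42-fold and Prom1 1.73-fold, a call Prom1 kept among the sets of 5 libraries only without WT replicate C. Ezr, which links membrane proteins to actin, was not called, at 582 CPM (KO) against 599 CPM (WT).

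Of 20 tested transcription factors of mucin-bearing epithelia 10 rose and 1 fell (median log2 fold change 0.49). Ehf, an Ets factor, had 51.4, 52.9 and 54.6 CPM in KO replicates A to C and 24.3, 27.3 and 28.2 CPM in WT replicates A to C. The groups lay far apart, 1.99-fold (log2 SE 0.06, edgeR adjusted p = 9.84e-07). Grhl3 and Grhl1, Grainyhead factors, rose 2.64-fold and 1.5-fold, while Grhl2 was not called, at 155 CPM (KO) against 163 CPM (WT). Foxa1 rose 2.34-fold, Elf3 1.39-fold and Klf4 1.34-fold. Over all 8 lists 37 of 102 genes tested rose (36.3%) and 8 fell, beside 12.3% and 10.7% of all genes tested. The lists were chosen with earlier results of these data known, so nothing is read from this difference.

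Over the 6 libraries, the genes of at least 5 CPM whose log2(CPM + 0.5) was most like that of a member were taken from 11286 genes by Pearson r. The difference between genotypes, by which the members were chosen, was not removed and enters r. The highest r among so many genes over 6 libraries is also high by selection, so the values are only a description. Bgn, a matrix proteoglycan, and the tetraspanin Tspan13 were among the 3 closest to both Muc4 (r of 0.998 and 0.997) and Muc16 (r of 0.999 and 0.996). Rdh10 was the other for Muc4 and Celsr2 for Muc16. Ecm1, Serpinb2 and Tspan8 were closest to Muc20, and Sgms2, Ptgfrn and Nfatc2 to Muc1. For Muc13 these were Plk3, Fam13b and Stox2, and for Muc15 Trim12a, Rab5a and Igtp. Of these 6 genes Stox2 (1.07-fold), Trim12a (1.04-fold), Rab5a (1.07-fold) and Igtp (1.06-fold) were not called between genotypes.

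Markers of other cell types were counted in the same libraries, beside 12.3% of all genes tested called higher and 10.7% called lower. These lists were also chosen with earlier results of these data known, so nothing is read from their counts. Of 10 tested airway and gut secretory markers 8 rose. The summed level of the list was 1012 to 1538 CPM in KO and 411 to 817 CPM in WT, highest in KO replicate B. Bpifb1 and Scgb1a1, examples picked from the 12 listed, were near 0 in both genotypes (0.119 and 0.0631 CPM on average in KO). Of 13 medullary TEC markers 10 rose, with a summed level of 6151 to 6504 CPM in KO and 4831 to 5403 CPM in WT. Of 9 microfold cell markers 7 rose, with 471 to 506 CPM in KO and 378 to 413 CPM in WT. Of 5 tested mesothelial markers 2 rose and 1 fell, a fall not called with DESeq2, RSEM counts, limma, a mean of at least 5 CPM or the block, and lost on leaving out replicate A or replicate B of either genotype. The list summed to 284 to 300 CPM in KO and 257 to 265 CPM in WT. Upk3b, Lrrn4 and Wt1, examples picked from the 8 listed, were near 0 in both genotypes (0.164, 0.0908, 0.018 CPM in KO against 0.205, 0.0825, 0.0256 CPM in WT). The sum therefore came from other markers of the list. The secretory rises numbered 4 in the robust fit, the medullary ones 6 with limma on TPM, and the microfold ones 4 without KO replicate A and 3 without WT replicate C. Of 11 tuft cell markers 10 rose (182 to 242 CPM summed in KO, 119 to 128 CPM in WT, 6 rises without WT replicate C). Of 11 fibroblast and pericyte markers 8 rose (1262 to 1357 CPM against 876 to 985 CPM), as did 7 of 9 tested dendritic cell and macrophage markers (64.1 to 72.3 CPM against 33.4 to 36.5 CPM), while 0 of 13 tested thymocyte markers were called. KO replicate A had the highest sums of the 6 libraries for thymocyte, B cell and endothelial markers (142, 36.1 and 63.7 CPM). KO replicate B had 101, 10.6 and 24.6 CPM, and KO replicate C had 86.5, 9.92 and 39.0 CPM. For fibroblast and pericyte, dendritic cell and macrophage, and erythroid markers, the sums of KO replicate A were not the highest. The part of these markers in the mucin difference, or in the spread between libraries, was not tested.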

How the data were processed

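Polyadenylated RNA was measured in 6 libraries. Per the submitters' processing notes, the authors used bcl2fastq 2.17, STAR 2.5.1b and RSEM 1.2.28. The notes name a human build, GRCh38, while the gene identifiers are mouse, so the build is uncertain. Symbols and positions came from GENCODE M21 (GRCm38), and 50600 gene identifiers were present. The deposited counts are raw reads per gene in 3 columns, unstranded and 1 for each strand, and the reverse-strand column, which holds the reads of the genes' own strand, was used. The deposited expected counts (rounded here) and TPM values were made by RSEM, per the file headers. The deposited transcript lengths, in bases, are also RSEM's.

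Genes passing filterByExpr were tested by quasi-likelihood in edgeR 4.0.16 (R 4.3.3), using TMM factors, no block and Benjamini-Hochberg adjustment over all genes tested. CPM used TMM-scaled library sizes. The SE of a log2 fold change was derived from the F statistic. The replicate letters were not treated as pairs. The members and lists were chosen with earlier results of these data known. Named genes were up to 6 called per list by p, or the 2 most abundant where none was called, the 3 most similar genes per member, and neighbours by distance, with the called ones up to 4. Other members of a list are examples chosen after their values were seen. Where a symbol had several identifiers, the one with more counts was used. Alternatives were RLE and upper quartile scaling, DESeq2 1.42.0, other filters, RSEM counts, limma 3.58.1 on log2(TPM + 1) and log2(TPM + 0.1), unstranded counts, a block, each library left out, and a robust fit added after the data were seen. The test was checked on simulated data. Figures used matplotlib 3.10.9.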

Additional observations from a re-analysis of the deposited data

Results flagged for a closer look

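The strand column that was not used for the comparison held reads over Muc20: 74, 91 and 85 in KO replicates A to C and 17, 22 and 43 in WT replicates A to C, so the lowest KO library (74) lay above the highest WT library. The exons that Muc4 and Muc20 share, 627 bases between positions 32777537 and 32779134 of chromosome 16 (GRCm38), lie on opposite strands. In the unstranded column Muc4 had 68, 79 and 76 fewer counts than in the stranded one in KO replicates A to C, and 14, 18 and 40 fewer in WT replicates A to C. These numbers are close to the opposite-strand counts of Muc20 in the same libraries. Muc20 was 3.15-fold higher with unstranded counts and 3.05-fold with stranded ones.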

How the results depend on the processing

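With limma on log2(TPM + 1) and log2(TPM + 0.1), 932 and 985 genes were called higher and 604 and 629 lower, against 2079 and 1820. For the listed genes these fits gave 22 and 23 higher and 1 and 1 lower, against 37 and 8, and for the neighbours 2 higher and 2 lower in both, against 5 and 6. A mean of at least 5 CPM left 3 members, all called higher, and 5 listed genes lower. Without a low count filter 8 neighbours were called higher. Leaving out each library gave 1477 to 1836 genes higher and 1152 to 1615 lower (1152 without WT replicate C). It gave 5 to 6 members higher and 0 lower, 29 to 35 listed genes higher and 5 to 7 lower, and 3 to 6 neighbours higher and 2 to 5 lower. The listed genes called lower numbered 5 without KO replicate B or any WT replicate. Muc15 was called without KO replicate B (adjusted p = 0.0472, edgeR) and without a filter (0.0193), and Muc13 was not called with limma (adjusted p = 0.0696 and 0.0841). The cause of these changes was not tested, other than the smaller number of genes or libraries by construction. No result reversed. The shares of the summed mucin level moved by less than 1 SD when taken from counts per length.

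Deviations of same-letter libraries correlated at -0.018, 0.095 and -0.039, and those of libraries with different letters at -0.074 to 0.093. Whether the replicate letters mark pairs is not given by the labels and cannot be told from these values. With the replicate block 2063 genes were called higher and 1744 lower, with 5 members higher, 39 listed genes higher and 7 lower, and 5 genes of microvilli in place of 3. Depth was lowest for Muc15 (2 to 35 counts) and Muc13 (23 to 79 counts).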
